A study of Rattus norvegicus with 15 samples.

Results

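Epithelial tight junction genes were followed across the 3 rat groups of the study through 9 genes, the claudins Cldn1, Cldn2, Cldn3, Cldn4, Cldn7 and Cldn15, occludin (Ocln), the scaffold protein ZO-1 (Tjp1) and junctional adhesion molecule A (F11r). Every noncontrol probe that the array files name for one of these genes was taken, which gave 16 of the 41012 noncontrol probes, and each probe is described apart from the others. Each group had 5 male rats and 1 array per rat. Wistar rats, which are not diabetic, had no operation. The diabetic animals were Goto-Kakizaki (GK) rats, a nonobese strain bred from Wistar, and were operated at 16 wk of age. GK-Sham-PF rats had sham surgery and were pair-fed, and GK-S-30 rats underwent Roux-en-Y gastric bypass (RYGB) with a Roux limb (RL) of 30 cm. Intestine was collected 14 wk postoperation, from the RL of GK-S-30 rats and from the matching stretch of small intestine in the other groups, which in GK-Sham-PF rats lay below a cut that had been rejoined without rearranging the gut. The comparison of GK-Sham-PF with Wistar rats therefore joins strain, diabetes, sham surgery and pair feeding, and the comparison between the GK groups, always given as GK-S-30 minus sham, joins the operation and the place of the sample in a rearranged gut.

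Tight junctions join epithelial cells near their apical edge and set how much water, ions and larger solutes pass between cells. Claudins cross the membrane and either seal this path or line pores in it. In the small intestine Cldn2 and Cldn15 are the known pore-forming claudins for cations, and Cldn1, Cldn3 and Cldn4 are counted among the sealing ones. Occludin and F11r are other membrane proteins of the junction, and Tjp1 ties them to the actin cytoskeleton.

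The probes are 60 bases long and were placed on the rat genome by the array's annotation (build rn4, 1-based positions). The sequences below are those behind the members that changed, Cldn15, Cldn1 and Ocln, and of 1 probe each of Cldn2, Cldn3 and Cldn4. These last genes are followed rat by rat in the RL. For Cldn2 and Cldn4 this is done mainly on their other probes, A_44_P838355 and A_44_P975437, whose sequences are not given. All letters are in capitals because the whole stretch hybridizes, and of the Cldn1 and Ocln probes the first 30 bases are given.
Cldn15, A_44_P339886, chr12:20844122-20844181, plus strand: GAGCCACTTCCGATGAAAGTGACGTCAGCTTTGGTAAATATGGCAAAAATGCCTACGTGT
Cldn2, A_44_P433905, chrX:127546789-127546848, plus strand: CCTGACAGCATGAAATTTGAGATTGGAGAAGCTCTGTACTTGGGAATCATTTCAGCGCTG
Cldn3, A_44_P376862, chr12_random:771373-771432, minus strand: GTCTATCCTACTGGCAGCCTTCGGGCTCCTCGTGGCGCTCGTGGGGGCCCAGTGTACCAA
Cldn4, A_44_P299550, chr12:22816744-22816803, plus strand: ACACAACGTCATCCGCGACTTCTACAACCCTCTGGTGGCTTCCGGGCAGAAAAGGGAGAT
Cldn1, A_44_P285463, in chr11:76487583-76487642, plus strand: TGAAATATGCCTAAGTAGTGTTTTTCCTTG
Ocln, A_44_P1007729, in chr2:31318489-31318548, minus strand: CCATTGTATCAGAGGATCCAATTACATTTA
The Cldn3 probe was the richest of the 16 in G and C (65%) and the Ocln probe the poorest (31.7%). Whether a position lies in an exon or in an untranslated end is not stated by the files.

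Of the 16 probes, 15 were tested, because all arrays of some group had them well above background, and all 9 genes had a tested probe. The probe left out was Cldn1 A_43_P12641, which was never well above background. Values are log2 of quantile-normalized signal, so a difference of 1 is a doubling, and levels of different probes cannot be compared. Changes were tested with limma over all 17028 tested probes, and a probe was called at an adjusted p under 0.05. Between GK-Sham-PF and Wistar rats 1 of the 15 probes was called (Cldn1, higher), beside 7.89% of all tested probes. Between the GK groups 2 were called (Cldn1 and Cldn15, both lower in GK-S-30), beside 8.36%. Between GK-S-30 and Wistar rats 2 were called (Cldn15 and Ocln, both lower), beside 24.1%. The Cldn1 probe was tested only through GK-Sham-PF, the group where it is high, so its calls and its lack of overlap were favored by that choice and carry no weight in these counts. Group ranges did not overlap for 2, 1 and 2 of the 15 probes in that order, beside 9.06%, 8.41% and 18.3% of all tested probes. The median log2 change of the 15 probes was 0.15, -0.01 and 0.16 in that order, against 0.01, -0.02 and -0.01 over all tested probes. The 3 comparisons share groups, so their counts are not independent of each other.

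**Figure D1:**
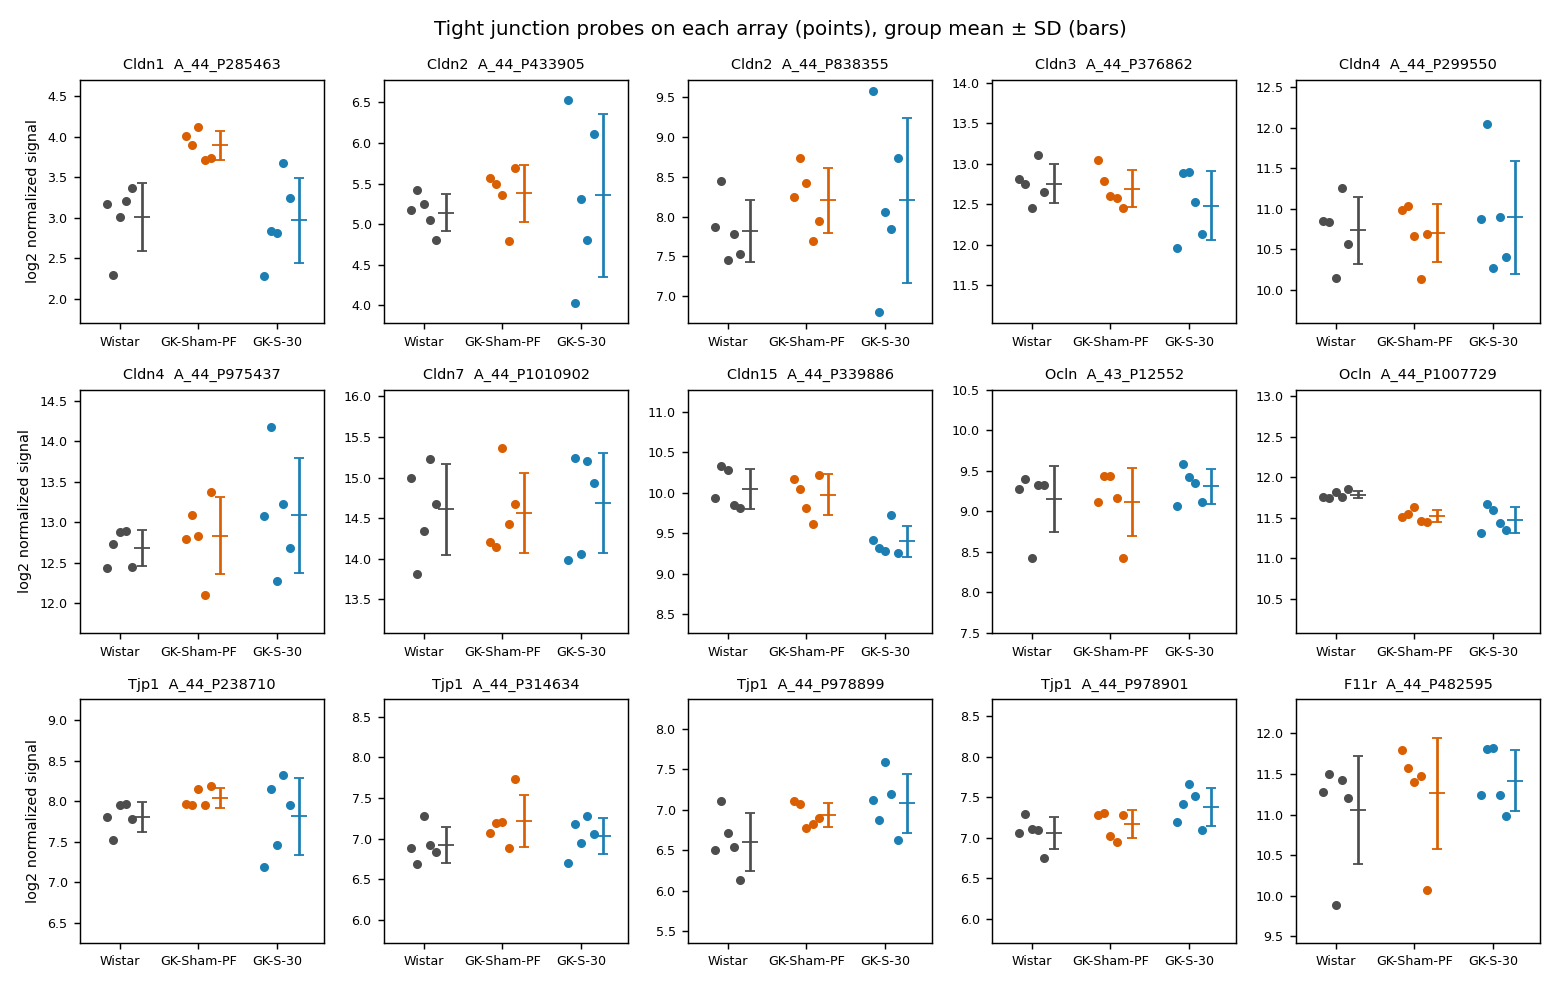
Each panel plots 1 tight junction probe, with the log2 normalized signal on the vertical axis, 1 point per rat in the 3 groups and bars for the mean ± SD of 5 rats. The Cldn15 points of GK-S-30 lie between 9.26 and 9.72, the Cldn1 points of GK-Sham-PF between 3.71 and 4.12, and the Cldn2 points of GK-S-30 are spread over the widest range of the 3 groups.

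Cldn15, a cation pore of the small intestine, was lower in the RL than in both other groups. Its log2 levels in Wistar rats 1 to 5 were 9.93, 10.33, 10.28, 9.85 and 9.81. GK-Sham-PF rats 1 to 5 had 10.17, 10.05, 9.81, 9.62 and 10.22. GK-S-30 rats 1 to 5 had 9.42, 9.32, 9.28, 9.72 and 9.26. All GK-S-30 rats were below all Wistar rats, and GK-S-30 rat 4 was the single one above a GK-Sham-PF rat. Against GK-Sham-PF the log2 change was -0.58 (SE 0.14), 1.49-fold lower, with a limma adjusted p of 0.0229. Against Wistar it was -0.64 (SE 0.14), 1.56-fold lower, with a limma adjusted p of 0.00476. GK-Sham-PF and Wistar rats were 0.06 apart (limma adjusted p = 0.875, 95% interval of the change -0.37 to 0.24). The arrays lay on 4 slides, of which 1 held 2 rats of each GK group, and on it the Cldn15 change was -0.55. With slide as a fixed block the change was -0.55 against GK-Sham-PF (limma adjusted p = 0.291) and -0.47 against Wistar (0.611), and both calls were lost. The call against GK-Sham-PF was also lost without GK-Sham-PF rat 1, 2 or 5 or GK-S-30 rat 3 or 5, at adjusted p between 0.0502 and 0.0615, while that against Wistar held without any single array. No slide held both GK-S-30 and Wistar arrays, so slide and group cannot be told apart in that comparison, whichever array is left out.

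Cldn1, a sealing claudin, was the member that differed between GK-Sham-PF and the other groups, at a signal near background. Its log2 levels in Wistar rats 1 to 5 were 3.17, 2.29, 3.01, 3.20 and 3.36. GK-Sham-PF rats had 4.01, 3.90, 4.12, 3.71 and 3.73. GK-S-30 rats had 2.28, 2.83, 2.81, 3.67 and 3.24. All GK-Sham-PF rats were above all rats of the other groups. The probe was well above background on all 5 GK-Sham-PF arrays and on 0 of the other 10, so it entered the test through GK-Sham-PF alone and a difference was built into that choice. The log2 change was 0.89 (SE 0.23, limma adjusted p = 0.0281) against Wistar and -0.93 (SE 0.23, adjusted p = 0.0239) between the GK groups. For scale, each array of the other group was set to its own lowest signal that counted as above background. Where the probe's signal was higher, it was kept, and the mean was taken. On these values GK-Sham-PF was 1.41-fold higher than Wistar and 1.26-fold higher than GK-S-30. These ratios are not bounds, because the probe was tested through GK-Sham-PF alone and the normexp changes below were smaller. Within the slides that held both groups the changes were 0.84 (3 GK-Sham-PF arrays and 1 Wistar array) and -1.16 (2 arrays of each GK group). The calls depended on the background correction and on single arrays. With normexp correction, whose offset compresses dim signals, the changes were 0.11 and -0.09 (limma adjusted p = 0.193 and 0.232), with slide as a fixed block they were 0.84 and -1.16 (adjusted p = 0.562 and 0.103), and without the 2 dimmest arrays the change against Wistar was 0.93 (adjusted p = 0.0534). Without Wistar rat 2 or GK-Sham-PF rat 1, 2 or 3 the call against Wistar was lost, at adjusted p between 0.0568 and 0.0733. Without GK-Sham-PF rat 1, 2 or 3 or GK-S-30 rat 1 or 3 the call between the GK groups was lost, at adjusted p between 0.0508 and 0.057. On the undetected probe A_43_P12641 the group means were 2.54 in GK-Sham-PF, 1.80 in Wistar and 1.48 in GK-S-30 rats, and the groups overlapped.

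The other pore-forming claudin, Cldn2, did not pass the test in any comparison, and its levels in GK-S-30 rats were spread widely. On probe A_44_P838355 GK-S-30 rats 1 to 5 had log2 levels of 9.58, 6.80, 8.06, 7.84 and 8.74. Wistar rats had 7.87, 8.45, 7.46, 7.78 and 7.53, and GK-Sham-PF rats 8.25, 8.73, 8.42, 7.69 and 7.94. The highest and the lowest of the 15 values were thus both from the RL. The SD was 1.04 in GK-S-30 against 0.39 in Wistar and 0.41 in GK-Sham-PF rats, and this difference in spread was not tested. Probe A_44_P433905, 1 of the sequences above, placed the GK-S-30 rats in the same order, at 6.53, 4.03, 5.31, 4.80 and 6.11. The A_44_P838355 means of the GK groups differed by 0.01 (limma adjusted p = 0.995), with a 95% interval of the change from -0.83 to 0.82, so that changes below that size could not be told from 0.

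Among the sealing claudins Cldn3 and Cldn4, no probe passed the test. For Cldn3, GK-S-30 rats 1 to 5 had log2 levels of 11.96, 12.88, 12.90, 12.53 and 12.14, whereas Wistar rats lay between 12.45 and 13.11 and GK-Sham-PF rats between 12.45 and 13.04. GK-S-30 rats 1 and 5, the lowest in Cldn3 of all 15, were the highest of their group in Cldn2. The Cldn3 change was -0.27 (SE 0.19) against Wistar and -0.21 (SE 0.19) against GK-Sham-PF, with limma adjusted p of 0.312 and 0.566. For Cldn4, probe A_44_P975437 read 13.08, 14.17, 12.27, 13.22 and 12.68 in GK-S-30 rats 1 to 5, and rat 2, the lowest in Cldn2, was the highest of all 15 arrays on both Cldn4 probes (14.17 and 12.04). The changes of A_44_P975437 and A_44_P299550 against GK-Sham-PF were 0.25 and 0.20 (both SE 0.29), with limma adjusted p of 0.687 and 0.764. Within the slide shared by the GK groups these changes were 0.89 and 1.04, with GK-S-30 rat 2 among its arrays.

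Cldn7, a claudin found along the sides of epithelial cells as well as at the junction, varied within each group. Its probe A_44_P1010902 lay across 171 genomic bases, more than its own length. Levels were between 13.81 and 15.23 in Wistar, 14.15 and 15.36 in GK-Sham-PF and 13.98 and 15.24 in GK-S-30 rats. The ranges nearly coincided, and the changes were between -0.05 and 0.12 (SE 0.32, lowest limma adjusted p 0.875).

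The crypt and villus markers of the same GK-S-30 rats are given beside these claudins, since Cldn2 is known from crypts. Over 9 crypt genes, such as Lgr5 and Olfm4, the mean log2 level of GK-S-30 rats 1 to 5 was 9.84, 9.39, 9.58, 9.31 and 9.68. Over 9 villus enterocyte genes, such as Apoa4 and Fabp1, it was 14.99, 15.64, 15.63, 15.71 and 15.42. GK-S-30 rats 1 and 5 were thus highest in the crypt genes and lowest in the villus genes, as they were highest in Cldn2 and lowest in Cldn3. The other groups did not share this order for Cldn2 and the crypt genes. Among GK-Sham-PF rats, rat 2 was highest in Cldn2 (8.73) and lowest in the crypt genes (9.33). Rat 4 was lowest in Cldn2 (7.69) and highest in the crypt genes (9.58). Wistar rat 4 was highest of its group in the crypt genes (9.71) at a Cldn2 level of 7.78, while Wistar rat 3 was lowest in both (9.40 and 7.46). For Cldn3 and the villus genes, the same rat was lowest in both within each of the other groups. Wistar rat 3 had 12.45 and 15.36, and GK-Sham-PF rat 5 had 12.45 and 15.38. Each was the dimmest array of its group. The part of cell composition in these claudin levels was not tested.

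Occludin was lower in both GK groups than in Wistar rats on 1 of its 2 probes, and the change was small. On A_44_P1007729 Wistar rats 1 to 5 had log2 levels of 11.76, 11.74, 11.82, 11.76 and 11.85. GK-Sham-PF rats had 11.51, 11.55, 11.63, 11.46 and 11.45. GK-S-30 rats had 11.31, 11.67, 11.60, 11.44 and 11.35. Every Wistar value was above every value of both GK groups. The change in GK-S-30 against Wistar was -0.31 (SE 0.09), 1.24-fold lower, with a limma adjusted p of 0.015. The call held without any single array, although no slide held both groups. In GK-Sham-PF it was -0.27 (SE 0.09), and the limma adjusted p of 0.0722 missed the threshold. The GK groups were 0.05 apart (95% interval of the change -0.23 to 0.14). With scaling to the 75th percentile the change of GK-S-30 against Wistar was -0.23 (limma adjusted p = 0.0766), with slide as a fixed block it was -0.16 (0.776), and within the slide that held 3 GK-Sham-PF arrays and 1 Wistar array the GK-Sham-PF change was -0.20. The other Ocln probe, A_43_P12552, was not called. Its changes were -0.03 in sham-operated and 0.16 in GK-S-30 rats against Wistar (SE 0.21, limma adjusted p = 0.963 and 0.638), and its lowest values, 8.42 in Wistar rat 3 and 8.42 in GK-Sham-PF rat 5, came from the 2 dimmest arrays. Without those arrays the change in GK-S-30 against Wistar was -0.03.

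Tjp1, the ZO-1 scaffold, had 4 probes and none was called. On the minus strand of chromosome 1, A_44_P978899 (chr1:119685960-119686019) and A_44_P978901 (chr1:119686134-119686193) lie farthest downstream, followed upstream by A_44_P238710 (chr1:119691677-119691736) and A_44_P314634 (chr1:119708180-119708239). In GK-S-30 against Wistar the downstream probes changed by 0.48 (SE 0.18) and 0.32 (SE 0.13), with limma adjusted p of 0.0701 and 0.0855. The upstream probes had changes of 0.01 (SE 0.18) and 0.11 (SE 0.16). In GK-Sham-PF against Wistar the changes were 0.33 and 0.11 downstream and 0.23 and 0.30 upstream, in the same order of probes. Between the GK groups they were 0.14 and 0.21 downstream and -0.22 and -0.18 upstream. On A_44_P978899 Wistar rats had log2 levels of 6.51, 7.11, 6.71, 6.54 and 6.13 and GK-S-30 rats 7.12, 6.87, 7.59, 7.19 and 6.63, so that the groups overlapped. That probe passed at adjusted p of 0.0227 without Wistar rat 2 (change 0.60) and 0.0314 without GK-S-30 rat 5 (change 0.59), and A_44_P978901 passed without GK-S-30 rat 5 at 0.0487 (change 0.39). With normexp correction A_44_P978901 passed at 0.0396 (change 0.24), and with array quality weights A_44_P978899 passed at 0.0389 (change 0.54). The difference between probes was not tested.

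F11r, the adhesion molecule JAM-A, was not called. Its log2 levels in Wistar rats 1 to 5 were 11.28, 11.50, 9.89, 11.42 and 11.20. GK-Sham-PF rats had 11.80, 11.57, 11.40, 11.48 and 10.07. GK-S-30 rats had 11.24, 11.81, 11.82, 11.24 and 10.98. The values of 9.89 and 10.07 came from the 2 dimmest arrays, and the remaining 13 lay between 10.98 and 11.82. The change between the GK groups was 0.15 (SE 0.34, limma adjusted p = 0.845) on all arrays and -0.14 (0.639) without those 2. With slide as a fixed block it was 0.75 (adjusted p = 0.519), as it was on the slide shared by the GK groups, which holds GK-Sham-PF rat 5, and against Wistar it was 1.06 (0.584). None of these passed the test.

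**Figure D2:**
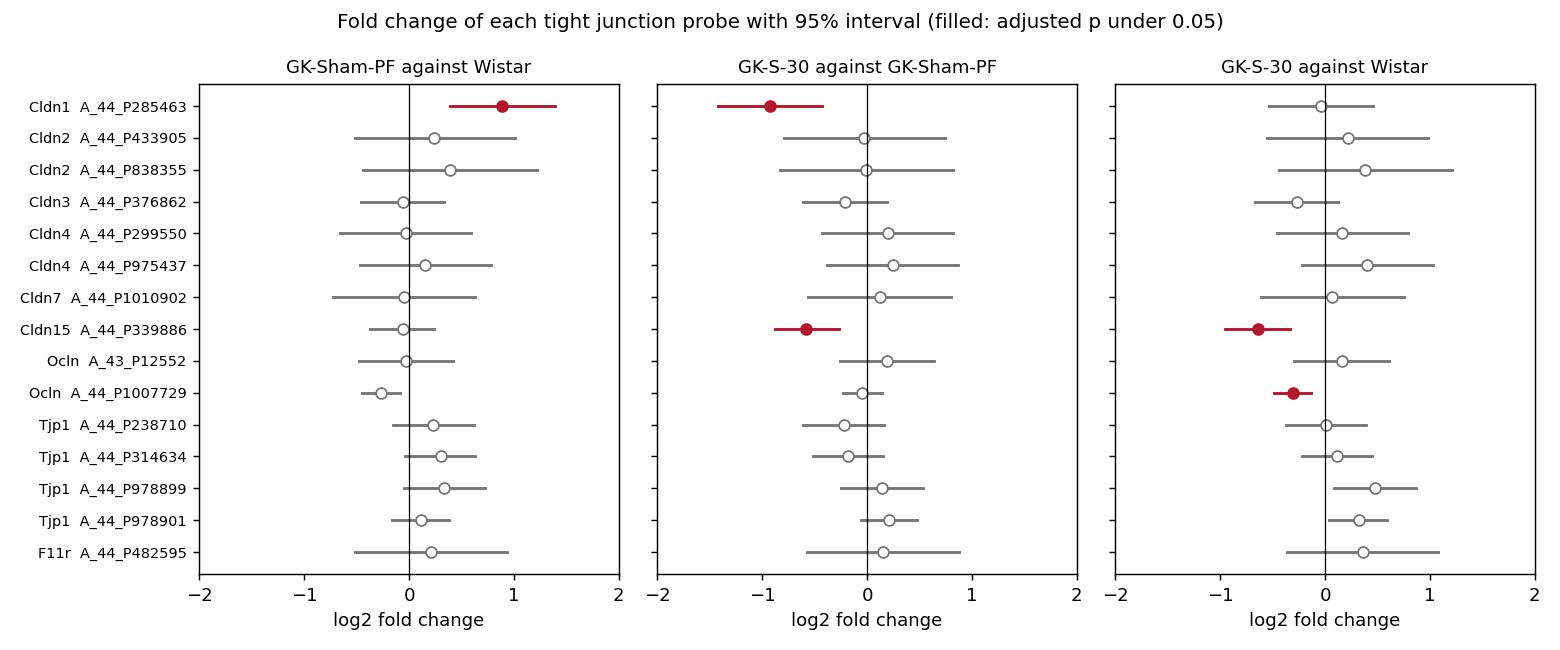
Log2 fold changes of the 15 tested probes (points) with 95% intervals (lines) in the 3 comparisons; filled red points passed at an adjusted p under 0.05. The called values are 0.89 for Cldn1 between GK-Sham-PF and Wistar, -0.93 for Cldn1 and -0.58 for Cldn15 between the GK groups, and -0.64 for Cldn15 and -0.31 for Ocln between GK-S-30 and Wistar.

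The genes most like the called members over the 15 arrays are given as a description, since all arrays share the group differences. For Cldn15 they were Fis1 (Pearson r = 0.942) and Tlcd3a (0.94), for Ocln A_44_P1007729 Tdp2 (0.934) and Rdh7 (0.917), and for Cldn1 Zfp84 (0.908) and the mast cell protease gene Mcpt8l3 (0.862).

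Other junction genes were described by 5 lists, with the brightest tested probe of each gene. Between GK-Sham-PF and Wistar rats 1 of the 69 genes described here was called, beside 8.4% of all 13023 genes. Cxadr, an adhesion protein of epithelial junctions, was higher by 0.51 on the log2 scale (limma adjusted p = 0.0339) on 1 of its 2 tested probes. Between the GK groups 4 were called, beside 9.11%, and between GK-S-30 and Wistar rats 10 were called, beside 25.5%.

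Of the 12 other claudins tested, Cldn11, best known from myelin and testis, was called between the GK groups (-0.65, adjusted p = 0.0194), although it too entered the test only through GK-Sham-PF, where it was highest, and Cldn9 was called against Wistar (-0.60, adjusted p = 0.0104), each lower in GK-S-30. The list's median change in GK-S-30 was -0.22 against GK-Sham-PF and -0.16 against Wistar. Of the 9 other membrane proteins, Marveld2, which seals the points where 3 cells meet, was higher in GK-S-30 than in Wistar rats (0.60, adjusted p = 0.00284), as was Cxadr (0.68, adjusted p = 0.00235). The 15 scaffolds and polarity proteins described here had log2 changes between -0.28 and 0.36 in GK-S-30 against Wistar, with a median of 0.06.

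Of the 18 genes of junction contractility and regulation, 3 were called in GK-S-30 against Wistar, beside 25.5% of all genes. The membrane protease gene Prss8 was lower (-0.47, limma adjusted p = 0.0138), and its family's inhibitor Spint2 was higher (0.48, adjusted p = 0.0107). Grhl2, a transcription factor of epithelial junction genes, was higher (0.31, adjusted p = 0.0235), although another of its probes had the opposite sign. Of the 15 genes of adherens junctions and desmosomes, 3 were called between the GK groups, beside 9.11% of all genes. Between GK-S-30 and Wistar rats 4 were called, beside 25.5%. In both comparisons all called genes of this list were higher in GK-S-30. Between the GK groups they were Pkp3 (0.79), Dsg2 (0.60) and Vcl (0.59), a plakophilin, a desmosomal cadherin and the actin linker vinculin. Against Wistar the same 3 and beta-catenin (Ctnnb1, 0.48, adjusted p = 0.0105) were called. Cxadr, Dsg2, Ctnnb1 and Vcl have further tested probes that were not called.

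**Figure D3:**
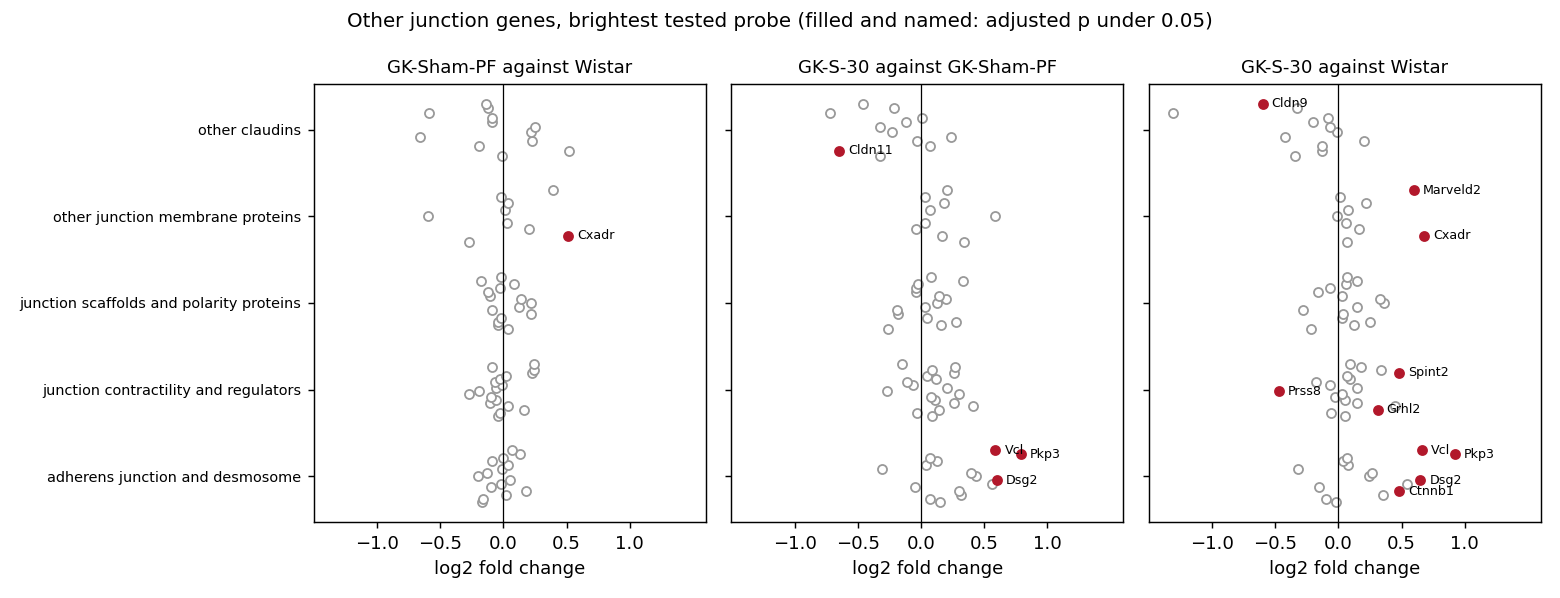
Log2 fold changes of the other junction genes in 5 lists, 1 point per gene (brightest tested probe), in the 3 comparisons; filled red points with names passed at an adjusted p under 0.05. The adherens junction and desmosome list holds 3 and 4 called genes of 15 in the comparisons with GK-S-30. Over all genes 9.11% and 25.5% were called there, and no called claudin is higher.

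The samples were whole intestine, so that fewer cells of a type and less RNA per cell cannot be told apart. Epithelial markers were bright in all groups, and all 12 of them, among them Epcam, Vil1 and Krt20, were well above background on every array. Their mean log2 level was 14.11 to 14.27 in Wistar, 14.10 to 14.40 in GK-Sham-PF and 14.40 to 14.48 in GK-S-30 rats, and their median change in GK-S-30 was 0.16 against GK-Sham-PF and 0.20 against Wistar. In GK-S-30, 3 of them were called against GK-Sham-PF, beside 9.11% of all genes, and 4 against Wistar, beside 25.5%. All those called were higher in GK-S-30. The 9 villus enterocyte genes all had a lower mean in GK-S-30 than in either other group, with median changes of -0.10 and -0.20 in the same order, and Fabp2 was called, against Wistar (-0.28, limma adjusted p = 0.0161). The part of enterocytes in the lower Cldn15 level was not tested. The 8 smooth muscle genes were all higher in GK-S-30 rats (Actg2 by 2.35 against GK-Sham-PF and 2.12 against Wistar). Against GK-Sham-PF 5 were called, beside 9.11% of all genes, and against Wistar 6, beside 25.5%. Their mean was 12.61 to 12.96 in GK-S-30 against 10.99 to 12.19 in GK-Sham-PF and 11.25 to 11.97 in Wistar rats. The part of muscle in the lower Cldn15 level and in the higher Vcl level was not tested. Relative to the mean of the epithelial markers on each array, a scale chosen after seeing the data, Cldn15 in GK-S-30 remained called against GK-Sham-PF (-0.77, limma adjusted p = 0.00453) and Wistar (-0.86, 0.000544). Ocln A_44_P1007729 remained called against Wistar (-0.53, limma adjusted p = 0.000951), and Cldn3 was called against Wistar as well (-0.49, 0.0353). On that scale the median of all probes was -0.21 against GK-Sham-PF and -0.23 against Wistar. There 18.9% of all tested probes were called against GK-Sham-PF and 36.1% against Wistar, most of them lower. Without that scale the shares were 8.36% and 24.1%, so these calls partly reflect the shift of the scale. Of 8 leukocyte genes 2 were called between the GK groups, both lower in GK-S-30, and 6 were called between GK-S-30 and Wistar, 5 of them lower. The shares over all genes were again 9.11% and 25.5%. Of the 9 stomach markers 4 (Tff1, Atp4b, Pgc and Chia) were well above background on all arrays. Cblif was on 0. Gkn2 was well above background on 2 arrays and Atp4a on 1, all of them from GK-S-30 rats. Gkn1 was well above background in 4 Wistar rats, 4 sham-operated rats and 1 rat with RYGB. For Muc5ac these numbers were 4, 3 and 3. Of the 7 squamous markers with a probe Krt5, Krt14, Krt15 and Krtdap were well above background on all arrays and Dsc3 on 0. In the same order of groups, Krt13 was well above background in 3, 4 and 5 rats and Dsg3 in 1, 2 and 0. The part of these cells in the members' levels was not tested.

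**Figure D4:**
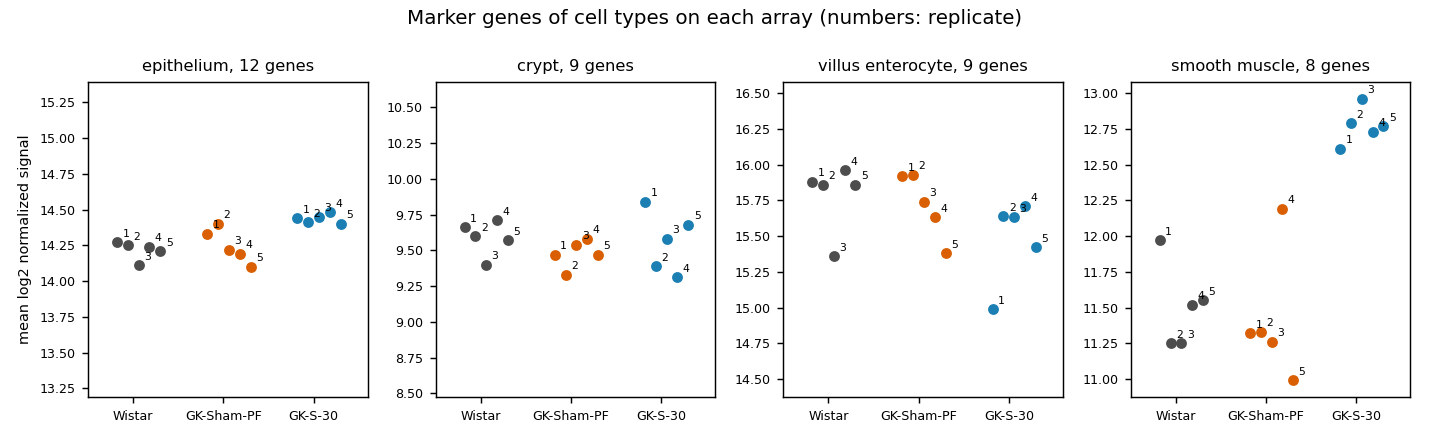
Mean log2 normalized signal of the epithelium, crypt, villus enterocyte and smooth muscle marker genes on each array, with 1 point per rat numbered by replicate. The smooth muscle points of GK-S-30 lie between 12.61 and 12.96, above the other 10 arrays, and GK-S-30 rat 1 is the lowest point for villus enterocyte genes (14.99) and the highest for crypt genes (9.84).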

How the data were processed

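Per the labels and the methods, intestinal RNA of 15 rats was measured on 1-color Agilent arrays of the whole rat genome, 1 array per rat, read with Feature Extraction 10.7 (10.7.3.1 by the file headers). The authors deposited intensity values of each spot, namely the processed signal (local background subtracted, not normalized between arrays), the mean signal and the background median, and a matrix of log2 values that the authors had quantile-normalized. Here log2 processed signals were used. Control and outlier-flagged spots were left out, spots of a probe were averaged, and limma 3.58.1 (R 4.3.3) was used for quantile normalization between arrays. No spot was saturated. Tests took named probes that all 5 arrays of some group marked as well above background (17028 probes, 13023 genes). Names came from the files and RefSeq (assembly GRCr8). On single arrays 66.7% to 74.7% of probes reached that mark, and the number of arrays limits the precision, since the median standard error of a log2 change was 0.15. The 75th percentile of signal was 206.6 on Wistar array 3 and 208.4 on GK-Sham-PF array 5, and 301.9 to 357.2 on the others.

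All 3 pairs were compared in 1 limma model over 15 arrays without covariates, with Benjamini-Hochberg adjustment over all tested probes at 0.05. The methods' Tukey test, other scalings, filters, blocks and each array left out were alternatives. A check used 17001 simulated probes with independent normal noise and no slide effect. In GK-Sham-PF 67, 67 and 66 of them were changed by 0.5, 1 and 2 on the log2 scale. Of those changed probes limma called 34.3%, 82.1% and 97%. Fewer probes were changed there than were called in the data, so these rates need not carry over. Members and lists were chosen with earlier results of these data known. Named genes were all probes of the 9 members, up to 4 called genes per junction list and comparison with the largest change, the brightest and most changed marker genes, and the 2 genes most correlated with each called member; further marker genes and Tjp1 and Cldn2 details were named after their values were seen. Nothing in the labels ties replicates to litters or cages. Of a junction list, 1 gene is not reported here and was left out of that list's counts. Promoter and genome sequence were not used.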

Additional observations from a re-analysis of the deposited data

Results flagged for a closer look

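Among the 45 groups of 5 arrays formed by the 15 tested probes, 3 held an array far from the other 4, by a gap above 0.710 of the group's whole range (Dixon's limit at 95%, which chance alone passes in about 1 of 20 groups). Ocln A_43_P12552 in Wistar rat 3 had a log2 level of 8.42, below the next Wistar value of 9.27. F11r A_44_P482595 had 9.89 in Wistar rat 3, where the next was 11.20, and 10.07 in GK-Sham-PF rat 5, where the next was 11.40. These are the 2 arrays with the lowest signal before normalization, with 75th percentiles of 206.6 and 208.4 against 301.9 to 357.2 elsewhere, and the part of that in these values was not tested.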

How the results depend on the processing

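Of 1377 fold changes of member probes under 31 alternatives, 1330 kept their call or stayed within the spread between rats. Most of these were changes not called in the main setting. Called changes lost their call in 28 cases, and uncalled ones gained a call in 8. None of the called changes reversed its sign. Members called were, for GK-Sham-PF against Wistar (1 in the main setting), 2 with array quality weights or with the methods' Tukey test unadjusted over probes, and 0 with normexp, the slide as a fixed block, the replicate block, the 2 dimmest arrays left out or the Tukey test adjusted over probes. Between the GK groups (2) they were 1 with normexp or the replicate block and 0 with slide as a fixed block or the adjusted Tukey test. For GK-S-30 against Wistar (2) they were 1 with 75th percentile scaling, 0 with slide as a fixed block, and 3 with normexp or array quality weights (Tjp1 added) or relative to epithelial markers (Cldn3 added). Leaving out 1 array gave 0 to 1, 0 to 2 and 2 to 4 in that order, the 4 without GK-S-30 rat 5. Over all probes (1343, 1423 and 4104), single arrays left out gave 997 to 1473, 937 to 1724 and 3363 to 4530, and a fixed slide block 210, 328 and 268. The Tukey test gave 826, 564 and 2687 adjusted, and 2374 and 2565 unadjusted in the comparisons with GK-Sham-PF, where array weights gave 3179 and 2395, adding unnamed probes gave 2187 between GK-Sham-PF and Wistar and 6354 between GK-S-30 and Wistar, and centring on epithelial markers, chosen after seeing the data, gave 3224 between the GK groups, with 15% of calls higher against 57.1% in the main setting (16.5% against 49.3% between GK-S-30 and Wistar). The replicate block gave 985, 963 and 3351; numbers did not pair the rats (same-numbered correlations -0.29 to 0.20), and its Cldn1 and Cldn15 adjusted p were 0.0502 (GK-Sham-PF against Wistar) and 0.0669 (between the GK groups). The causes were not tested. A fixed slide block uses only the slides that hold 2 groups. None holds both GK-S-30 and Wistar arrays, so its GK-S-30 against Wistar values are indirect and rest on 1 Wistar array. Dim signal limits Cldn1.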
